A study of Mus musculus with 6 samples.

Results

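The genes described here build and run the transport system and the gate of the primary cilium. They were given as a list of 49 gene names, matched by symbol to exon array probe sets that carry a single gene symbol. Of the 49, 47 were tested among the 16916 genes of the arrays. Arl6 and Arl13b were not analysed here, because none of the probe sets used carried either name alone. On the array Ift27 was listed as Rabl4, Ift46 as 1500035H01Rik, Ift43 as 1700019E19Rik, Tctn1 as Tect1 and Tmem231 as 4932417I16Rik.

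The primary cilium is a single antenna of microtubules covered by membrane, and it grows from the mother centriole of resting cells. Proteins are carried along it on trains of intraflagellar transport (IFT) complexes: kinesin-2 moves IFT-B trains towards the tip, and cytoplasmic dynein 2, with IFT-A, brings them back. The BBSome carries membrane proteins out of the cilium, and the transition zone at its base decides which proteins enter and leave. Vertebrate Hedgehog signalling depends on this organelle, since Smoothened (Smo), the membrane protein that passes the signal on, acts inside it.

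The study measured total RNA of OP9 cells, a mouse stromal line that supports blood cell culture and comes from op/op mice, which lack functional M-CSF, on Affymetrix Mouse Exon 1.0 ST arrays, to find what changes when Smo is depleted. The Smo shRNA group held 3 arrays of cells with a stable pLKO.1-puro lentiviral hairpin against Smo, and the control shRNA group held 3 arrays of cells with a stable scrambled hairpin in the same vector. Both groups were OP9 cells kept below confluence, and no age, time or further treatment is given for either. RNA was isolated in triplicate from the stable cells of each hairpin. Separate transductions are not mentioned, so p-values measure the spread between RNA samples, which may be technical. A difference between the 2 stable lines that is not due to the hairpin cannot be told apart from the effect of the hairpin. In bulk RNA, fewer cells of a type and less RNA per cell cannot be told apart either.

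Smo itself read 11.32, 11.36 and 11.44 on the log2 scale on the Smo shRNA arrays, against 12.29, 12.22 and 12.24 on the control shRNA arrays. The groups did not overlap, and Smo fell by 0.88 (SE 0.04, limma adjusted p = 1.14e-09), which is 1.83-fold. By the array value the fall was partial, and no other measure of the remaining Smo was used here. The 26 probe sets of Smo all had negative differences, between -1.49 and -0.07, and 24 were called.

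Values differed widely between the lines: 6538 of 16916 genes (38.6%) passed an adjusted p of 0.05, 3594 (21.2%) higher and 2944 (17.4%) lower in Smo shRNA cells. The first principal component held 80.8% of the variance, and arrays correlated at 0.996 to 0.998 within a group and at 0.979 to 0.981 between groups. Of 9 tested bone marrow stroma markers, 7 fell, among them Kitl and Cxcl12, and the mean of the list was 11.13 to 11.23 on Smo shRNA arrays and 11.46 to 11.50 on control shRNA arrays. Of 5 tested blood cell markers, Cd68 rose (0.47, adjusted p = 0.000163), and the list mean was 8.18 to 8.27 on Smo shRNA arrays against 8.03 to 8.18 on control shRNA arrays. The list means of 6 epithelial markers (8.19 to 8.32 on Smo shRNA arrays against 8.22 to 8.28 on control shRNA arrays) and 5 endothelial markers (7.51 to 7.69 on Smo shRNA arrays against 7.54 to 7.68 on control shRNA arrays) lay below the median gene value of 9.19 in Smo shRNA cells and 9.18 in control shRNA cells. The part of these marker changes in the cilium results was not tested.

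Among the 47 cilium genes tested, 10 rose (21.3%), 15 fell (31.9%) and 22 did not pass, so that 53.2% were called, beside 38.6% of all genes. The share that rose was near the background of 21.2%, and the share that fell lay above the background of 17.4%. The changes were small. The largest was 1.38-fold (Rpgrip1l), the median fold of those that fell was 1.24 and of those that rose 1.25, beside 1.23 over all called genes. Of the 47 cilium genes, 8 were called at 1.3-fold or more, beside 2400 of all 16916 genes (14.2%). None was called at 1.5-fold or more, beside 1020 of all 16916 genes (6.03%). The median difference was -0.03, beside 0.009 over all genes, and the median absolute difference was 0.203, beside 0.114. In 24 of the 25 called genes, all but Cep290, the 2 groups did not overlap. Called or not, 11 genes lay higher and 18 lower without overlap, beside 26.4% and 21.4% of all genes (47.8% in either direction).

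The roles differed in direction. BBSome genes were mostly higher in Smo shRNA cells, whereas the IFT-B, motor and transition zone genes that changed were mostly lower, and IFT-A was split. These differences between roles hold for the listed genes, were described by counts and were not tested. Outside the list, 4 of 15 further BBSome and trafficking genes rose and 2 fell, at a median difference of 0.03. Among them Bbs10 rose (0.21), whereas Bbip1 (-0.12), Lztfl1 (-0.07) and Mkks (0.03) did not pass. Of 14 further IFT and motor genes, 5 rose and 4 fell, at a median difference of 0.026. Among 14 further transition zone genes, 3 rose and 2 fell, at a median of 0.077.

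**Figure D1:**
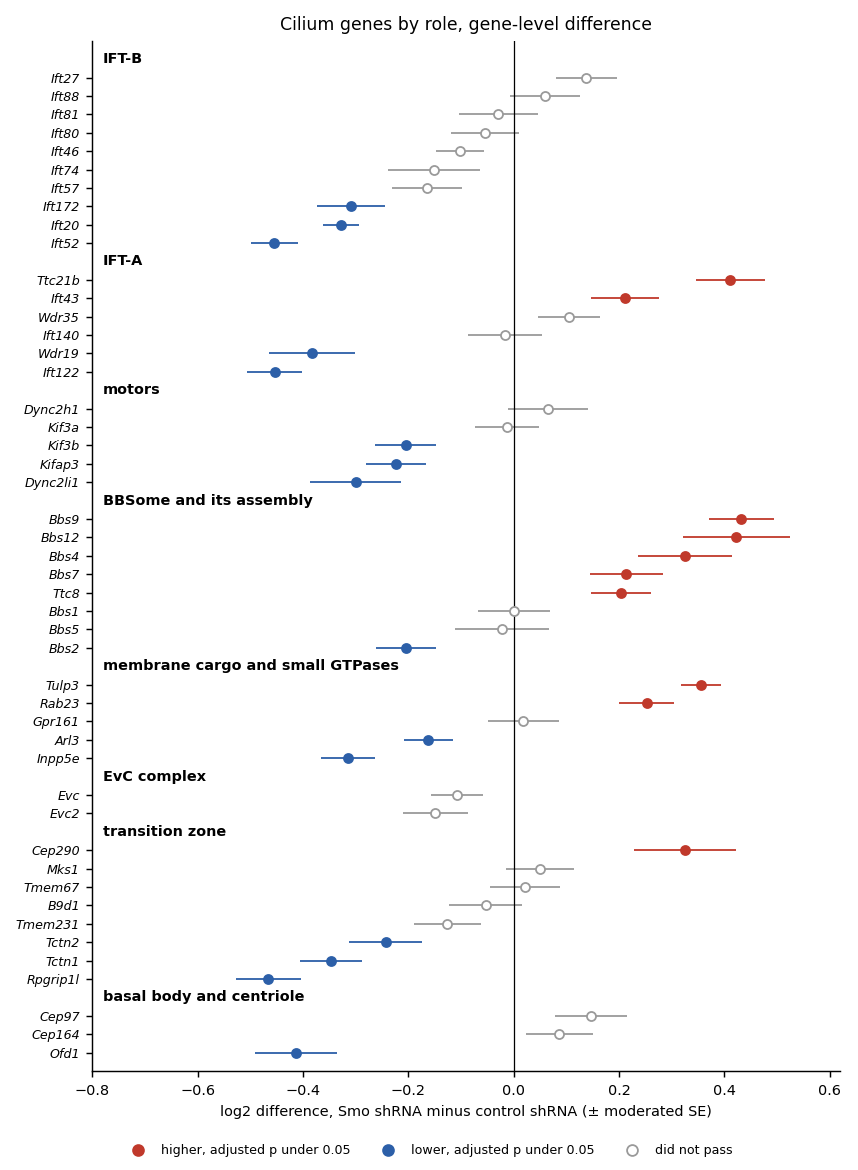
Difference in gene value (log2, Smo shRNA minus control shRNA, n = 3 arrays each) for the 47 tested cilium genes, grouped by role, with bars for the moderated standard error. Filled red points rose and filled blue points fell at an adjusted p of 0.05, and open points did not pass. The points of the BBSome group lie mostly right of 0, up to 0.43 for Bbs9, and the called IFT-B and motor genes lie left of 0.

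Regulatory factor X (RFX) proteins bind the X-box, a motif known from the promoters of many cilium genes, and GTTGCC is its core sequence. RefSeq promoter windows (build GRCm38.p6, 250 bases before to 50 after each start) were found for 44 of the 49 genes. Ift122, Ift80, Ift81, Tmem67 and Dync2li1 had no entry in the table used. On either strand, GTTGCC stood in the windows of 20 of 44 cilium genes (45.5%), beside 3821 of 27025 genes with a window (14.1%). The longer X-box, which contains the core in many but not all matches, stood in 4 of them (9.09%: Bbs1, Ift57, Tctn1 and Tctn2), beside 1.75% of all genes. The windows of cilium genes had a median GC content of 60.0%, beside 52.8% for all promoters. Over all promoters it was 53.3% for genes with GTTGCC and 52.7% for genes without it. The part of base composition in these shares was not tested. A match describes the letters of the window and does not show that a factor binds there.

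The following stretches show the X-box matches of Ift57 and Tctn2, in capitals, with the bases around them. Ift57 (chr16:49699183-49699270, plus strand) did not pass the test, and Tctn2 (chr5:124598663-124598724, plus strand) fell.
Ift57: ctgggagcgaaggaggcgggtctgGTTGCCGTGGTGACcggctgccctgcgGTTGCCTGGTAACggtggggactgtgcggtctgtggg
Tctn2: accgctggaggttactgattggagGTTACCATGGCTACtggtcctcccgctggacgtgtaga
Ift57 carries 2 matches, and the first begins 87 bases before the start.

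The windows were also split by call, a split made after the values were seen, and the difference between its shares was not tested. The core sequence stood in 15 of the 19 genes with a window that did not pass (78.9%), in 1 of the 10 that rose (Bbs7) and in 3 of the 13 that fell (23.1%: Ift172, Tctn1 and Tctn2). Over all tested genes with a window the shares were 15.2% of those that did not pass, 14.4% of those that rose and 14.9% of those that fell. The median GC content of the cilium genes was 58.3% for those that did not pass, 63.0% for those that rose and 60.0% for those that fell. The stretches below show the core sequence in capitals, on the strand of the gene, in Bbs7 (chr3:36613481-36613534, minus strand), which rose, and in Kif3a (chr11:53567247-53567300, plus strand), Ift140 (chr17:25015953-25016006, plus strand) and Mks1 (chr11:87853167-87853214, plus strand), which did not pass. In Ift140 it is read on the opposite strand.
Bbs7: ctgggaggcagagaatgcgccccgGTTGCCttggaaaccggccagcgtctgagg
Kif3a: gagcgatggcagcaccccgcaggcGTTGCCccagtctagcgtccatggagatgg
Ift140: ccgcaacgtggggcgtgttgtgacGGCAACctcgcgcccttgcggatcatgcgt
Mks1: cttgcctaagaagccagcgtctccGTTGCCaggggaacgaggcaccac

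IFT-B is the larger train complex, which carries tubulin and other cargo outwards. Of its 10 tested genes, 3 fell (30.0%), none rose and 7 did not pass by limma. Of all genes, 17.4% fell and 21.2% rose. An unadjusted p under 0.05 was found for 6 of the 10, beside 7487 of all 16916 genes. With the stricter filter and with quantile normalization 5 fell, and with the mean of probe sets 1 rose (Ift27). The median difference was -0.127, and it was -0.075 with the mean of probe sets, -0.074 without Smo shRNA array 1, and -0.079 and -0.071 without control shRNA arrays 1 and 3. Ift52, a core subunit that holds IFT-B together, read 10.72, 10.70 and 10.75 on Smo shRNA arrays, against 11.25, 11.13 and 11.16 on control shRNA arrays. Every Smo shRNA array lay below every control shRNA array, and Ift52 fell by 0.45 (SE 0.05, adjusted p = 2.41e-06). Ift20, which also works at the Golgi to send membrane proteins to the cilium, read 12.72, 12.66 and 12.80 on Smo shRNA arrays, against 13.09, 13.03 and 13.04 on control shRNA arrays. It fell by 0.33 (SE 0.03, adjusted p = 3.4e-06) without overlap. Ift172, the large peripheral subunit, read 8.87, 8.91 and 8.99 on Smo shRNA arrays, against 9.24, 9.15 and 9.31 on control shRNA arrays. These groups did not overlap either, and Ift172 fell by 0.31 (SE 0.06, adjusted p = 0.00154).

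The other IFT-B genes had differences between -0.16 and 0.14. Ift57, a peripheral subunit, averaged 9.55 in Smo shRNA cells and 9.72 in control shRNA cells, and its difference of -0.16 (SE 0.07) did not pass (adjusted p = 0.065). Ift74 (-0.15), Ift46 (-0.10), Ift80 (-0.05), Ift81 (-0.03) and Ift88 (0.06) did not pass. Ift81 and Ift74 form the tubulin-binding module, and Ift88 is the subunit in which a mutation in mice gave the classic short-cilium phenotype. Ift27, a small GTPase that links IFT-B to the exit of the BBSome, had a difference of 0.14 and did not pass (adjusted p = 0.0831).

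IFT-A drives the return journey and the entry of membrane receptors into the cilium. Its 6 genes divided evenly into 2 that rose, 2 that fell and 2 that did not pass. That is 33.3% in each direction, beside 21.2% of all genes higher and 17.4% lower. The median difference was 0.044, and it was -0.008 without control shRNA array 2 and 0.008 without Smo shRNA array 2. Ift122, a core subunit, read 10.15, 10.22 and 10.24 on Smo shRNA arrays, against 10.68, 10.57 and 10.71 on control shRNA arrays. The groups were well apart, and Ift122 fell by 0.45 (SE 0.05, adjusted p = 9.33e-06). Wdr19, also called Ift144 and likewise a core subunit, averaged 9.11 ± 0.11 in Smo shRNA cells and 9.49 ± 0.16 in control shRNA cells (SD, n = 3 each) and fell by 0.38 (adjusted p = 0.00182).

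Ttc21b, also called Ift139 and a peripheral subunit, moved the other way. It read 10.36, 10.41 and 10.41 on Smo shRNA arrays, against 9.98, 9.84 and 10.12 on control shRNA arrays. All Smo shRNA arrays were higher, and Ttc21b rose by 0.41 (SE 0.07, adjusted p = 0.000171). Ift43, a small peripheral subunit, averaged 9.82 ± 0.03 in Smo shRNA cells and 9.60 ± 0.12 in control shRNA cells and rose by 0.21 (SE 0.06, adjusted p = 0.0177). That call was lost without any 1 of Smo shRNA arrays 1, 2 and 3 and control shRNA arrays 2 and 3, with an adjusted p of up to 0.14, and with all 6 arrays when dim probe sets were not filtered out (adjusted p = 0.0663). Ift140, a core subunit (-0.02), and Wdr35, a peripheral one (0.10), did not pass. Both genes that fell thus code for core subunits and both that rose for peripheral ones, a grouping noticed after the values were seen, which rests for the peripheral subunits on Ttc21b and on the unstable call of Ift43.

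The motor genes comprise the kinesin-2 subunits Kif3a, Kif3b and Kifap3 and the dynein 2 subunits Dync2h1 and Dync2li1. Of these 5, 3 fell (60.0%, beside 17.4% of all genes) and 2 did not pass, at a median difference of -0.205. Kifap3, which joins the kinesin to its cargo, read 9.99, 10.04 and 10.08 on Smo shRNA arrays, against 10.27, 10.16 and 10.35 on control shRNA arrays. The groups were apart by a small gap, and Kifap3 fell by 0.22 (SE 0.06, adjusted p = 0.00633). Kif3b, a motor subunit, averaged 9.09 ± 0.03 in Smo shRNA cells and 9.29 ± 0.05 in control shRNA cells (SD, n = 3 each) and fell by 0.20 (adjusted p = 0.0117). Dync2li1, the light intermediate chain of dynein 2, averaged 8.47 ± 0.08 in Smo shRNA cells and 8.77 ± 0.18 in control shRNA cells and fell by 0.30 (SE 0.09, adjusted p = 0.0131). Kif3a, the partner of Kif3b (-0.01), and Dync2h1, the heavy chain of dynein 2 (0.07), did not pass.

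These 3 motor calls depended on single arrays. Kifap3 (adjusted p up to 0.133) and Dync2li1 (up to 0.218) lost them without any 1 of Smo shRNA arrays 1, 2 and 3 and control shRNA arrays 1 and 3. Kif3b lost its call without control shRNA array 1 or 3 (up to 0.0628). The direction was lower in Smo shRNA cells for all 3 genes in every one of these fits.

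The BBSome is a coat of 8 proteins, Bbs12 belongs to the chaperonin-like complex that helps to assemble it, and Arl6 recruits it to membranes. The 8 genes tested in this group were 7 subunits and Bbs12. Of these 8, 5 rose (62.5%, beside 21.2% of all genes), 1 fell (12.5%, beside 17.4%) and 2 did not pass. The group had a median difference of 0.209, beside 0.009 over all genes. Of the 7 subunits alone, 4 rose and 1 fell. Bbip1, read with the further BBSome and trafficking genes, did not pass (-0.12, adjusted p = 0.2). Bbs9, a central scaffold subunit, read 10.12, 10.13 and 10.15 on Smo shRNA arrays, against 9.75, 9.57 and 9.79 on control shRNA arrays. The lowest Smo shRNA array was above the highest control shRNA array, and Bbs9 rose by 0.43 (SE 0.06, adjusted p = 7.2e-05). Bbs12 read 7.87, 7.75 and 7.80 on Smo shRNA arrays, against 7.23, 7.29 and 7.64 on control shRNA arrays, so that control shRNA array 3 came close to the Smo shRNA arrays. It rose by 0.42 (SE 0.10, adjusted p = 0.00401), from 6 probe sets, and lost the call without Smo shRNA array 1 or control shRNA array 1 or 2 (adjusted p up to 0.0775).

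Bbs4, which links the BBSome to the pericentriolar material, averaged 9.12 ± 0.10 in Smo shRNA cells and 8.80 ± 0.19 in control shRNA cells (SD, n = 3 each) and rose by 0.32 (adjusted p = 0.00989). Bbs7 averaged 9.46 ± 0.07 in Smo shRNA cells and 9.25 ± 0.12 in control shRNA cells and rose by 0.21 (adjusted p = 0.026). Ttc8, the subunit also called Bbs8, averaged 10.37 ± 0.07 in Smo shRNA cells and 10.17 ± 0.08 in control shRNA cells and rose by 0.20 (adjusted p = 0.0108). Bbs2, which forms a subcomplex with Bbs7 and Bbs9, went against its partners: it averaged 9.89 ± 0.03 in Smo shRNA cells and 10.09 ± 0.09 in control shRNA cells and fell by 0.20 (adjusted p = 0.0113). Bbs1 (0.00), the subunit that contacts Arl6, and Bbs5 (-0.02), which binds membrane lipids, did not pass.

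Apart from that of Bbs9, the BBSome calls did not hold without every single array. Bbs4 (adjusted p up to 0.174) and Bbs7 (up to 0.198) lost them without any 1 of Smo shRNA arrays 1, 2 and 3 and control shRNA arrays 2 and 3. Ttc8 lost its call without Smo shRNA array 1 or 3 or control shRNA array 2 or 3 (up to 0.116), and Bbs2 without Smo shRNA array 1, 2 or 3 or control shRNA array 1 or 3 (up to 0.149). The group count of 5 that rose became 1 without Smo shRNA array 1, 3 without array 2 and 2 without array 3, and 4, 1 and 2 without control shRNA arrays 1, 2 and 3.

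The membrane cargo adaptors and small GTPases were split, with 2 that rose, 2 that fell and 1 that did not pass, and a median difference of 0.018. That is 40.0% in each direction, beside 21.2% of all genes higher and 17.4% lower. Tulp3, the adaptor that brings receptors such as Gpr161 into the cilium with IFT-A, read 11.93, 11.91 and 11.86 on Smo shRNA arrays, against 11.57, 11.49 and 11.57 on control shRNA arrays. The groups were clearly apart, and Tulp3 rose by 0.36 (SE 0.04, adjusted p = 4.36e-06). Rab23, a small GTPase that restrains Hedgehog signalling in mice, averaged 10.41 ± 0.07 in Smo shRNA cells and 10.16 ± 0.04 in control shRNA cells (SD, n = 3 each) and rose by 0.25 (adjusted p = 0.00151). Gpr161, the ciliary receptor that keeps the pathway off through cyclic AMP, had a difference of 0.02 and did not pass.

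Inpp5e is the phosphatase that sets the lipid composition of the ciliary membrane which Tulp3 reads. It read 10.33, 10.33 and 10.47 on Smo shRNA arrays, against 10.72, 10.66 and 10.69 on control shRNA arrays, without overlap. Inpp5e fell by 0.32 (SE 0.05, adjusted p = 0.000186). Arl3, the GTPase that releases lipid-modified cargo in the cilium, averaged 10.40 ± 0.04 in Smo shRNA cells and 10.57 ± 0.02 in control shRNA cells and fell by 0.16 (adjusted p = 0.0131). Its call was lost when probe sets were averaged (difference -0.06, adjusted p = 0.597), and without Smo shRNA array 2 or control shRNA array 1 (up to 0.0611).

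Evc and Evc2 form the complex at the base of the cilium that binds active Smo and passes the signal on. Neither gene passed by limma. Both had an unadjusted p under 0.05, as did 7487 of all 16916 genes tested. The median difference of the pair was -0.128. Evc2 read 8.56, 8.64 and 8.57 on Smo shRNA arrays, against 8.70, 8.76 and 8.76 on control shRNA arrays, and Evc read 10.02, 9.99 and 10.04 on Smo shRNA arrays, against 10.13, 10.09 and 10.16 on control shRNA arrays. Both genes were lower on every Smo shRNA array than on any control shRNA array, as were 21.4% of all genes. The adjusted p was 0.0778 for Evc2 (difference -0.15, SE 0.06) and 0.11 for Evc (-0.11, SE 0.05). Without control shRNA array 2, Evc passed (difference -0.12, adjusted p = 0.0275).

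At the transition zone, 1 of 8 genes rose (12.5%, beside 21.2% of all genes), 3 fell (37.5%, beside 17.4%) and 4 did not pass. Their median difference was -0.09. Rpgrip1l, a scaffold of the gate, read 9.18, 9.20 and 9.34 on Smo shRNA arrays, against 9.72, 9.65 and 9.75 on control shRNA arrays. It showed the largest difference of all 47 genes, and it fell by 0.47 (SE 0.06, adjusted p = 3.4e-05) without overlap. Tctn1, a tectonic of the membrane-associated gate complex, read 9.08, 9.13 and 9.18 on Smo shRNA arrays, against 9.44, 9.46 and 9.53 on control shRNA arrays, and fell by 0.35 (SE 0.06, adjusted p = 0.000277). Tctn2, its relative, averaged 9.42 ± 0.04 in Smo shRNA cells and 9.67 ± 0.14 in control shRNA cells (SD, n = 3 each) and fell by 0.24 (adjusted p = 0.012), a call that was lost without Smo shRNA array 1 or 3 or control shRNA array 1 or 3 (up to 0.191).

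Cep290, which bridges microtubules and membrane at the gate, was the single transition zone gene that rose. It read 8.03, 8.21 and 8.33 on Smo shRNA arrays, against 7.80, 7.74 and 8.05 on control shRNA arrays. Control shRNA array 3 lay above Smo shRNA array 1, so the groups overlapped, and the rise of 0.33 (SE 0.10, adjusted p = 0.0159) was lost without Smo shRNA array 2 or 3 or control shRNA array 1 or 2 (up to 0.186). Mks1 (0.05), B9d1 (-0.05), Tmem67 (0.02) and Tmem231 (-0.13), which belong to the same gate complex as the tectonics, did not pass.

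Of the 3 basal body and centriole genes, 1 fell (33.3%, beside 17.4% of all genes) and 2 did not pass. Ofd1, a protein of the distal centriole and centriolar satellites, read 8.75, 8.81 and 9.01 on Smo shRNA arrays, against 9.29, 9.16 and 9.36 on control shRNA arrays. No array of either group crossed into the other, and Ofd1 fell by 0.41 (SE 0.08, adjusted p = 0.000707). Cep97, which with Ccp110 caps the centriole and holds back cilium growth, read 8.68, 8.66 and 8.71 on Smo shRNA arrays, against 8.60, 8.42 and 8.58 on control shRNA arrays. All Smo shRNA arrays were higher, but the difference of 0.15 (SE 0.07) did not pass (adjusted p = 0.113). Cep164, a distal appendage protein that docks the centriole at the membrane, had a difference of 0.09 and did not pass.

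**Figure D2:**
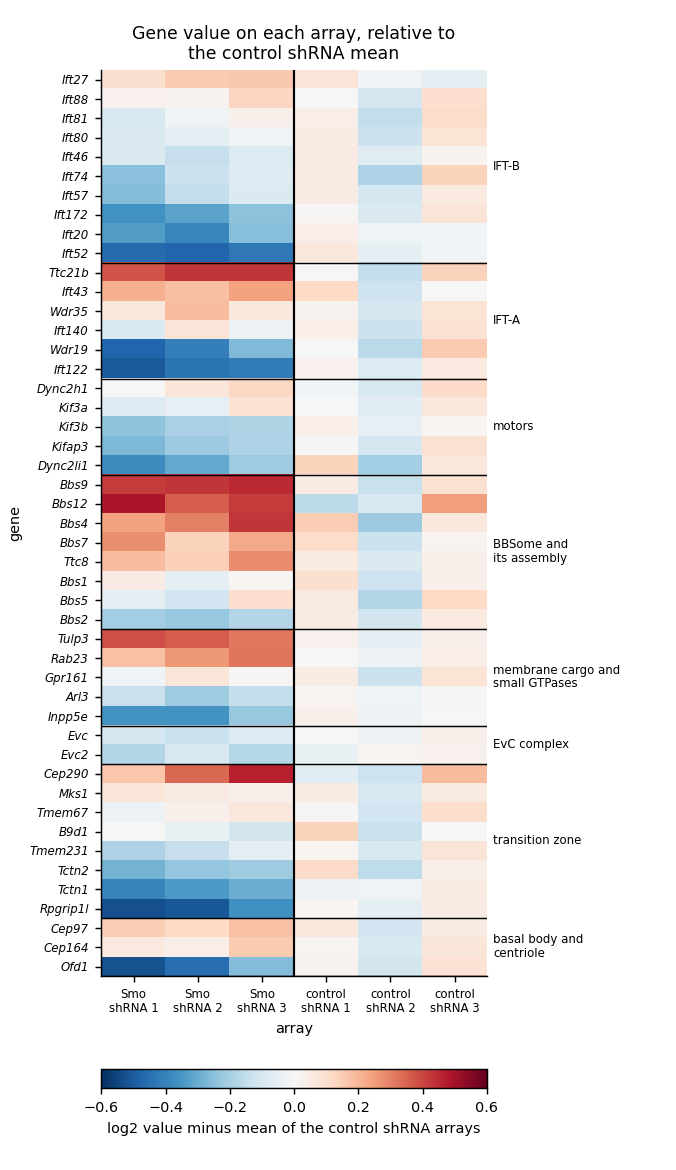
Gene value on each of the 6 arrays minus the mean of the control shRNA arrays (log2, colour scale), for the 47 tested genes by role. Ttc21b, Bbs9 and Tulp3 are red and Ift52, Ift122 and Rpgrip1l blue on all 3 Smo shRNA arrays, and control shRNA array 2 is pale blue in most genes.

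In each called gene most single probe sets differed in the direction of the gene, but the share of them that was called varied widely. Probe sets of a gene read the same transcripts and are no replicates. Of the 1159 probe sets of cilium genes kept, 98 rose (8.46%) and 219 fell (18.9%), beside 17.5% and 12.4% of all 245574 probe sets (30.0% in either direction). Rpgrip1l was lower in all 32 of its probe sets, of which 25 fell. Ift52 fell in 13 of 14, Ift122 in 28 of 34 and Ift20 in all 8. In the other direction Bbs9 was higher in all 27 and rose in 22, Ttc21b rose in 29 of 35, and Tulp3 rose in 11 of 13.

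In many called genes all or nearly all probe sets differed in 1 direction, while far fewer of them were called. Cep290 was higher in all 44 of its probe sets but rose in 6, and Bbs2 was lower in all 20 but fell in 5. Kifap3 was lower in all 27 and fell in 10, and Dync2li1 was lower in all 12 and fell in 4. Ift172 fell in 24 of 61 and was lower in 58. Among the BBSome genes that rose, Bbs4 rose in 4 of 20 probe sets, Bbs7 in 5 of 23, Ttc8 in 6 of 18 and Bbs12 in 2 of 6. Ift43 rose in 2 of 9, while Kif3b fell in 6 of 24, Arl3 in 2 of 6, Tctn1 in 8 of 19 and Tctn2 in 10 of 30.

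**Figure D3:**
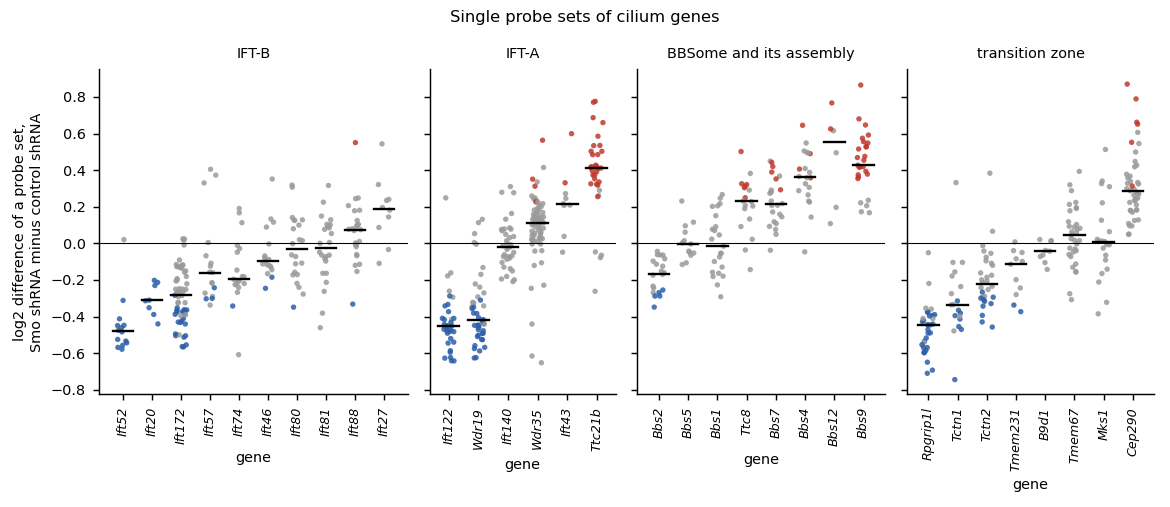
Each point is the difference of 1 probe set (log2, Smo shRNA minus control shRNA) of a gene in the IFT-B, IFT-A, BBSome and transition zone groups, red where it rose, blue where it fell and grey where it did not pass, and the bar is the median of the gene. All points of Bbs9 lie above 0 and all points of Rpgrip1l below it.

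By role, more probe sets rose than fell in the BBSome group alone. Of its 150 probe sets, 39 rose (26.0%) and 5 fell (3.33%). Of 217 IFT-B probe sets, 1 rose (0.461%) and 53 fell (24.4%), and of 199 at the transition zone 6 rose (3.02%) and 45 fell (22.6%). Among IFT-A genes 35 of 228 rose (15.4%) and 55 fell (24.1%), and among cargo genes 17 of 59 rose and as many fell (28.8% each). Probe sets of motor, EvC and basal body genes were called in 1 direction: 20 of 159 (12.6%), 11 of 62 (17.7%) and 13 of 85 (15.3%) fell. Single genes held many of these probe sets. Bbs9 gave 22 of the 39 that rose in the BBSome group, and Ttc21b 29 of the 35 that rose in IFT-A. Rpgrip1l gave 25 of the 45 that fell at the transition zone, and Ift172 24 of the 53 that fell in IFT-B. The shares were not tested against each other.

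**Figure D4:**
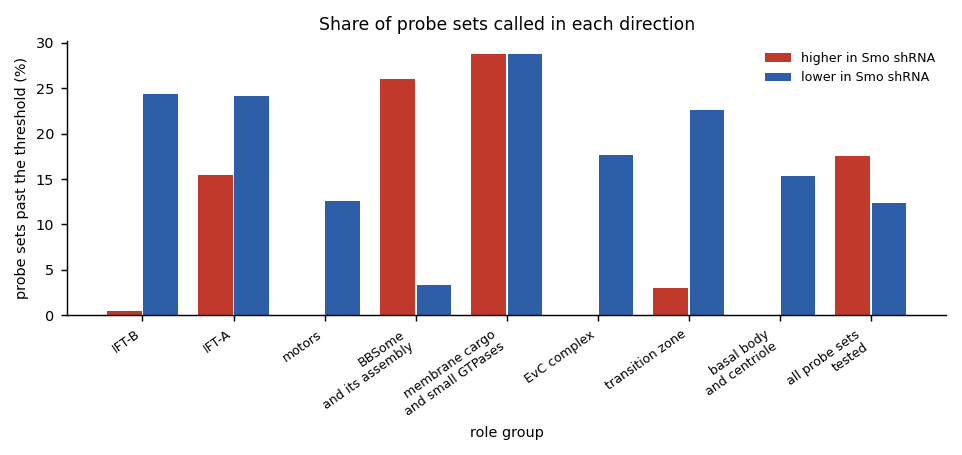
Share of kept probe sets (%) that rose (red) or fell (blue) in Smo shRNA cells, for each role and for all probe sets tested. The BBSome group has 26.0% higher and 3.33% lower, whereas IFT-B has 0.461% higher and 24.4% lower, and all probe sets have 17.5% and 12.4%.

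Taken array by array, the medians of the roles separated the groups for BBSome, motor and EvC genes. For each gene the mean of the control shRNA arrays was subtracted, and the median over a role was then taken on each array. The BBSome medians were 0.213, 0.139 and 0.255 on Smo shRNA arrays, against 0.055, -0.127 and 0.061 on control shRNA arrays. The motor medians were -0.242, -0.192 and -0.18 on Smo shRNA arrays, against 0.009, -0.098 and 0.067 on control shRNA arrays. Both roles showed no overlap, in opposite directions. The IFT-B medians were -0.173, -0.133 and -0.08 on Smo shRNA arrays, against 0.047, -0.092 and 0.068 on control shRNA arrays, and the transition zone medians were -0.111, -0.092 and -0.082 on Smo shRNA arrays, against 0.013, -0.105 and 0.054 on control shRNA arrays. In both of these, control shRNA array 2 lay within the range of the Smo shRNA arrays.

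Control shRNA array 2 was low for cilium genes in general. The median over all 47 genes was -0.099 on it, against 0.039 and 0.058 on control shRNA arrays 1 and 3, while over all genes tested it was -0.03, against 0.021 and 0.012. Without that array, 4 cilium genes rose and 16 fell, in place of 10 and 15. Without control shRNA array 1, 8 rose and 9 fell, and without control shRNA array 3, 6 rose and 10 fell. Without Smo shRNA arrays 1, 2 and 3, 5, 6 and 5 rose and 11 fell each time.

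**Figure D5:**
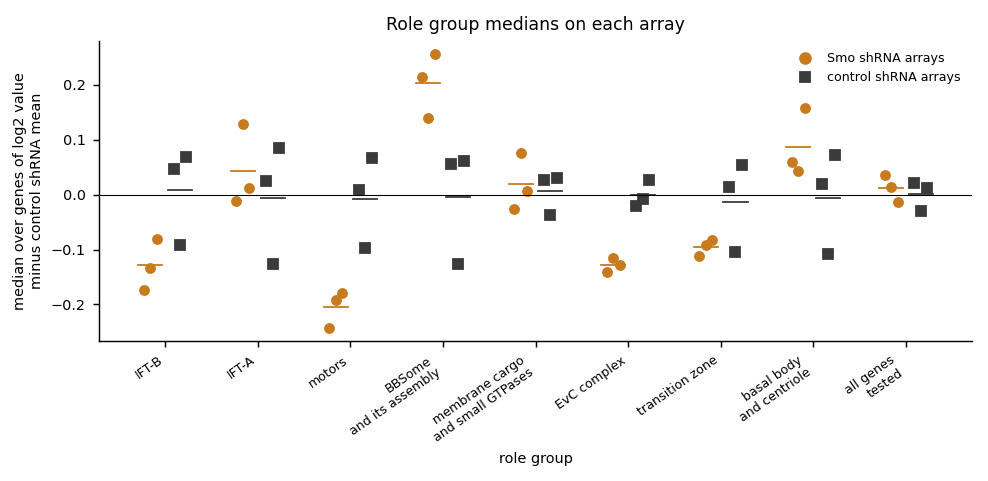
Median over the genes of a role of the log2 value minus the control shRNA mean, for each Smo shRNA array (circles) and control shRNA array (squares), with the mean of each group as a bar. The BBSome medians of the Smo shRNA arrays (0.139 to 0.255) lie above all control shRNA arrays and the motor medians (-0.242 to -0.18) below them, whereas control shRNA array 2 lies among the Smo shRNA arrays for IFT-B and the transition zone.

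Of the 25 calls, 13 held without each single array and under the other settings tried. They were 9 genes that fell (Ift20, Ift52, Ift172, Ift122, Wdr19, Inpp5e, Rpgrip1l, Tctn1 and Ofd1) and 4 that rose (Ttc21b, Bbs9, Tulp3 and Rab23). The weakest of these by its highest adjusted p were Wdr19 (0.0489) and Ift172 (0.043).

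Genes of the same structures outside the list were read from lists chosen by function. Among 63 of these other structural cilium genes, 19 rose (30.2%) and 10 fell (15.9%), so that 46.0% were called. Of all genes 38.6% were called, 21.2% higher and 17.4% lower, and of the 47 listed genes 21.3% rose and 31.9% fell. The larger share that fell among the listed genes was thus not seen in these others. Their median difference was 0.039, and 11 to 14 rose and 7 to 12 fell without single arrays. Of 14 further IFT and motor genes 5 rose and 4 fell. The smallest adjusted p values belonged to Tctex1d2, a dynein 2 light chain (0.48, adjusted p = 4.86e-05), Kif3c, a kinesin-2 motor subunit (0.40, adjusted p = 9.48e-05), and Ttc30a2, an IFT-B subunit (-0.45, adjusted p = 0.000202). Of 15 further BBSome and trafficking genes 4 rose and 2 fell. The largest change was in Arl2bp, which binds Arl2 and Arl3 and fell by 1.07 (adjusted p = 4.26e-09), while Arl2 rose by 0.26 (adjusted p = 1.53e-05) and Rab3ip, which activates Rab8 for cilium growth, by 0.40 (adjusted p = 6.05e-05).

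Of 14 further transition zone genes 3 rose and 2 fell. Cc2d2a, a gate protein of the same complex as the tectonics, fell by 0.60 (adjusted p = 1.68e-05), and the gate membrane proteins Tmem107 (0.44, adjusted p = 0.000145) and Tmem216 (0.30, adjusted p = 0.00204) rose. Of 20 further basal body genes 7 rose and 2 fell. The smallest adjusted p values were those of 2700049A03Rik, the gene of Talpid3 (0.69, adjusted p = 4.51e-06), Cep78 (0.56, adjusted p = 6.4e-06) and Kif24, a kinesin that works with Ccp110 and Cep97 (0.48, adjusted p = 5.55e-05). Counts of these smaller lists moved without single arrays: 3 to 5 of the basal body genes rose (3 without Smo shRNA array 2 or control shRNA array 1) and 2 to 4 fell (4 without control shRNA array 2). Of the IFT and motor genes 3 to 4 rose and 2 to 4 fell, of the BBSome and trafficking genes 2 to 4 rose, and of the transition zone genes 1 to 2 fell.

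Of 10 genes of cilium disassembly, 6 rose and 2 fell (80.0% called, beside 38.6% of all genes), at a median of 0.175, a difference that was not tested. The 2 that fell became 1 without Smo shRNA array 1 or 2 or control shRNA array 1 or 3. Hdac6, the tubulin deacetylase (0.37, adjusted p = 2.18e-05), and Aurka, the kinase that switches it on (0.22, adjusted p = 0.000272), rose, while Nedd9, the scaffold that activates Aurka, fell by 0.35 (adjusted p = 6.92e-06). S-phase genes rose in 12 of 14 (85.7%, beside 21.2% of all genes), with a median of 0.412. Their smallest adjusted p values were those of Mcm2 (0.95, adjusted p = 6.71e-10), Mcm5 (0.69, adjusted p = 6.46e-09) and Uhrf1 (0.54, adjusted p = 1.42e-08). The mean of the S-phase list was 11.95 to 11.97 on Smo shRNA arrays, against 11.49 to 11.55 on control shRNA arrays. Cells resorb the cilium when they re-enter the cycle, and the part of cell cycle stage in the cilium results was not tested.

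Of 10 ciliary receptors and channels 1 rose (10.0%, beside 21.2% of all genes) and 4 fell (40.0%, beside 17.4%). Smo, the target of the hairpin, is among the genes that fell. Adcy3, the adenylyl cyclase used as a marker of neuronal cilia, rose by 1.62 (adjusted p = 5.02e-09), and Ptch1, the Hedgehog receptor and a target of the pathway, fell by 0.39 (adjusted p = 2.66e-05). Of 10 RFX and motile cilium factors 2 rose (1 without Smo shRNA array 1 or control shRNA array 1 or 2) and 1 fell: Rfx3 (0.38, adjusted p = 0.00194), Rfx2 (0.22, adjusted p = 0.00432) and Rfx5, which acts on MHC class II genes (-0.77, adjusted p = 1.22e-07). The share called in that list was 30.0%, beside 38.6% of all genes. Genes of motile cilia, which OP9 cells are not known to carry, were called in 1 of 16 (6.25%). There Dnaic2, an outer arm dynein chain, fell by 0.45 (adjusted p = 0.000407).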

How the data were processed

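Total RNA of 6 samples was hybridized to Affymetrix Mouse Exon 1.0 ST arrays, and the authors deposited 1256831 log2 probe set values per array. The log2 scale was inferred from their range, which ended at 15.14. How they were summarised and normalized is not stated in the labels. Array medians lay between 6.56 and 6.59. The number of arrays limits the precision, and no detection call was used.

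Probe sets with 1 gene symbol in the platform annotation (318760) were kept where their mean over the 6 arrays reached the median of all probe sets (6.56). Old symbols were updated through the RefSeq table of GRCm38.p6 (4077 updated, 213 kept). Tukey median polish over the kept probe sets, where a gene had at least 3, gave 16916 gene values per array. The comparison used limma 3.58.1 under R 4.3.3 (lmFit, eBayes with a variance trend, no block, two-sided, Benjamini-Hochberg over all genes or all 245574 kept probe sets, threshold 0.05). The calculation was tested on simulated data. Alternatives were other filters, the mean of probe sets, at least 5 probe sets, quantile normalization, no variance trend, a replicate block and leaving out each array.

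Per-array values are given for members that were called with a difference of at least 0.4 and for the smallest adjusted p of each role group, and from each other list up to 3 called genes are named. Further members were given values after these were seen. Members, role groups and lists were chosen with earlier results of these data known. Promoter windows came from RefSeq, build GRCm38.p6.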

Additional observations from a re-analysis of the deposited data

How the results depend on the processing

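Directions of the 25 called cilium genes were the same under all 13 alternatives (12 for Bbs12, which had too few probe sets for a gene value under the stricter filter). Leaving out 1 array at a time gave 4 to 8 that rose and 9 to 16 that fell, in place of 10 and 15, and 65 to 104 probe sets of cilium genes that rose, in place of 98. Other structural cilium genes that rose numbered 11 to 14, in place of 19. Of all genes, 2672 to 2919 rose, in place of 3594, and 2087 to 2783 fell, in place of 2944. The part of the smaller number of arrays in these changes was not tested. The median of the cargo group was -0.033 to 0.066 and that of the EvC pair -0.119 to -0.078 in these fits, and the EvC median was -0.152 with the mean of probe sets; the cause was not tested. Among genes that did not pass, differences near 0 turned sign. Bbs1 was at -0.0072 without the filter, -0.0013 with the mean of probe sets and -0.0053 after quantile normalization, Bbs5 at 0.0068 and Gpr161 at -0.0066 with the mean, and Mks1 at -0.0282 with the stricter filter. Without single arrays the ranges were -0.0707 to 0.0067 for Ift80, -0.0713 to 0.0279 for Ift81, -0.0612 to 0.0524 for Ift140, -0.0493 to 0.0311 for Kif3a, -0.02 to 0.0679 for Bbs1, -0.0523 to 0.0688 for Bbs5, -0.0327 to 0.0655 for Gpr161, 0.00 to 0.0504 for Mks1, -0.1094 to 0.0126 for B9d1 and -0.0477 to 0.0704 for Tmem67. Of the 22 genes that did not pass, 6 passed under at least 1 alternative: Ift27 rose, and Ift46, Ift57, Ift74, Evc and Evc2 fell.

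Arrays of the 2 groups share replicate numbers, and no label states that same-numbered arrays are paired. Deviations of same-numbered arrays correlated at 0.08, 0.1 and 0.39 for replicates 1, 2 and 3. Differently numbered arrays were not compared, so these values do not decide whether the arrays are paired. The main fit left the replicate number out. With the replicate number as a block, 10 cilium genes rose and 15 fell, as in the main fit. Of all genes, 3797 rose and 3148 fell, in place of 3594 and 2944.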
